A study of Mus musculus with 6 samples.

Results

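The miRNAs described here are mmu-miR-431, mmu-miR-433, mmu-miR-127, mmu-miR-434-3p, mmu-miR-434-5p and mmu-miR-136, which come from 5 hairpins that lie side by side in the Dlk1-Dio3 locus and are read from the strand opposite to the gene Rtl1. They were taken from a table of mouse aortas by their exact assay names, which gave 6 of the 596 mouse miRNA assays. The cluster was proposed with the values of miR-433 and miR-431 in these same samples already known. All differences between the groups in its members are therefore descriptions without a P value.

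MiRNAs were measured by real-time PCR cards in total RNA from whole aortas of 6 female Apoe-/- mice, 3 EC-Dicerflox and 3 EC-DicerWT littermates, each labelled as a biological replicate. EC-Dicerflox mice were Dicer1flox/flox and EC-DicerWT mice Dicer1WT/WT. All 6 mice carried VE-Cadherin-CreERT2, a Cre recombinase that is driven by an endothelial promoter and becomes active with tamoxifen (TMX). TMX was injected into both groups on 5 days, and the mice, labelled as 6 to 8 weeks old, then received a high-fat diet (HFD) with 21% crude fat and 0.15% cholesterol over 12 weeks. The design directs the loss of Dicer to endothelial cells, while the RNA came from whole aortas. The comparison asks which miRNAs depend on endothelial Dicer in the atherosclerotic aorta. The table holds small RNAs only, so Dicer mRNA could not be checked in these samples.

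The Dlk1-Dio3 locus is imprinted. Its non-coding RNAs Meg3, antisense Rtl1, Rian and Mirg are transcribed from the maternal chromosome and carry many miRNAs, whereas Rtl1, a gene derived from a retrotransposon, is transcribed from the paternal one. Since the antisense Rtl1 transcript runs opposite to Rtl1, its miRNAs match the Rtl1 mRNA without mismatch and can direct its cleavage. Like most miRNAs, they are cropped from the long transcript by Drosha and cut from their hairpins by Dicer.

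The mature sequences are printed because neighbours in this cluster share a transcript but not a target sequence, which is read mainly through the seed (bases 2 to 8, in capitals). They are given 5′ to 3′ from RefSeq (GRCm38.p6), where all 6 members were found. For miR-434 the assay name states the arm of the hairpin. For the other 4 assays it does not, and the arm was taken from the standard nomenclature.
miR-431 (5p arm, chr12:109590459-109590479, plus strand): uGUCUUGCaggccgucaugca
miR-433 (3p arm, chr12:109591781-109591802, plus strand): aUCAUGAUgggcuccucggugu
miR-127 (3p arm, chr12:109592888-109592909, plus strand): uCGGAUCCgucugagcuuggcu
miR-434-5p (chr12:109594528-109594549, plus strand): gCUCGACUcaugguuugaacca
miR-434-3p (chr12:109594565-109594586, plus strand): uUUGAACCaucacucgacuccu
miR-136 (5p arm, chr12:109595331-109595352, plus strand): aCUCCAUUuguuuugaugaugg
The 6 seeds were all different. Among the 1679 mature mouse miRNAs in the RefSeq table, no other miRNA had the seed of a member. The hairpins span 4942 bases, and those of miR-433, miR-127, miR-434 and miR-136 begin 1.27, 2.4, 4.06 and 4.88 kb after that of miR-431. MiR-434-5p and miR-434-3p are the opposite strands of the miR-434 hairpin, which is shown with both mature strands in capitals (chr12:109594506-109594599, plus strand).
Mir434: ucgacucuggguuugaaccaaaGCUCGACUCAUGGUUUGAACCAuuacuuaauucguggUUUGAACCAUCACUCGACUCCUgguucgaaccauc

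The deposited values are raw threshold cycles (Ct), which state how many PCR cycles an assay took to reach a set signal. A higher Ct means less RNA, 1 cycle is 1 unit on the log2 scale at full PCR efficiency (not measured here), and an undetected assay is listed at 40. The level of a miRNA is the reference Ct of the sample (the mean of snoRNA135, snoRNA202, U6, U87 and Y1) minus its Ct, and a change is the mean level in EC-Dicerflox minus that in EC-DicerWT aortas. Of the 596 assays, between 421 and 454 were detected per sample, 394 were detected in all samples, and the 439 with a Ct under 40 in 3 or more samples were tested. The reference Ct was 19.7 ± 0.39 in EC-DicerWT and 19.9 ± 0.46 in EC-Dicerflox aortas (SD, n = 3 each), and it was highest in the third replicate of each group (20.2 and 20.4). The third replicates also stood apart in the levels, where 113 of the 439 tested assays (25.7%) were highest in the third replicate of both groups, so changes of the members are also given without them. The smooth muscle miRNAs miR-143 and miR-145 (Ct 14.5 to 16.5) and the endothelial miR-126-3p and miR-126-5p (Ct 17.2 to 21.3) were abundant in all samples. The summed levels of the markers of smooth muscle, endothelium, leukocytes, erythrocytes, striated muscle, fibroblasts and neurons overlapped between the groups, with differences from -0.09 to 0.28 on the log2 scale. These sums follow the most abundant assay of each list. The markers are miRNAs, most of which are themselves cut by Dicer, so their sums cannot tell cell content from processing. Among the single markers, only miR-208 of striated muscle was without overlap, with a change of -1.65 ± 0.53 (SE, adjusted limma P of 0.98), and its part in the changes of the members was not tested. For endothelium the range was 1.98 to 2.76 in EC-Dicerflox and 2.14 to 2.82 in EC-DicerWT aortas.

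MiR-431, from the first hairpin of the cluster, was the member with the largest drop in EC-Dicerflox aortas. Its Ct was 28.8, 28.6 and 28.6 in EC-Dicerflox replicates 1 to 3 and 26.2, 26.6 and 26.7 in EC-DicerWT replicates 1 to 3. Every EC-Dicerflox aorta thus needed more cycles than every EC-DicerWT aorta. The level of miR-431 was -6.79 ± 0.31 in EC-DicerWT and -8.76 ± 0.58 in EC-Dicerflox aortas (SD, n = 3 each). The change of -1.97 ± 0.37 (SE) on the log2 scale left 25.5% of the EC-DicerWT level.

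MiR-433, whose hairpin follows that of miR-431, showed the same separation of the groups. Its Ct was 28.0, 28.3 and 28.6 in EC-Dicerflox replicates 1 to 3 and 26.8, 26.5 and 26.7 in EC-DicerWT replicates 1 to 3. The level was -6.92 ± 0.33 in EC-DicerWT and -8.42 ± 0.16 in EC-Dicerflox aortas (SD, n = 3 each), a change of -1.50 ± 0.26 (SE) to 35.3% of the EC-DicerWT level. The gap between the groups exceeded the range within each. In a bulk sample, fewer cells that make a miRNA and less of it per cell cannot be told apart.

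MiR-127, from the third hairpin, had the earliest Ct of the members in 5 of the 6 aortas, and its values overlapped between the groups. Its Ct was 22.2, 22.3 and 22.5 in EC-Dicerflox and 22.0, 21.8 and 22.3 in EC-DicerWT replicates 1 to 3. The level of -2.28 ± 0.13 in EC-DicerWT and -2.44 ± 0.31 in EC-Dicerflox aortas (SD, n = 3 each) gave a change of -0.16 ± 0.25 (SE). MiR-127 had a smaller spread within groups than most of the tested assays, at the 14.8th percentile.

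Both strands of miR-434 also overlapped between the groups. For miR-434-3p the Ct was 23.2, 23.6 and 22.7 in EC-Dicerflox and 22.7, 22.9 and 22.2 in EC-DicerWT replicates 1 to 3. Its level was -2.86 ± 0.77 in EC-DicerWT and -3.26 ± 0.83 in EC-Dicerflox aortas (SD, n = 3 each), with a change of -0.40 ± 0.60 (SE). The third replicate lay above the other aortas of its group in each case. For miR-434-5p the Ct was 28.3, 27.9 and 28.4 in EC-Dicerflox and 27.7, 27.9 and 28.1 in EC-DicerWT replicates 1 to 3. Its level was -8.17 ± 0.26 in EC-DicerWT and -8.29 ± 0.47 in EC-Dicerflox aortas (SD, n = 3 each), with a change of -0.12 ± 0.33 (SE).

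MiR-136, from the last hairpin, followed miR-127 and miR-434-3p in the order of Ct in 5 of the 6 aortas. Its Ct was 26.9, 27.4 and 26.4 in EC-Dicerflox and 26.1, 26.5 and 25.9 in EC-DicerWT replicates 1 to 3. Its level was -6.44 ± 0.69 in EC-DicerWT and -7.00 ± 0.82 in EC-Dicerflox aortas (SD, n = 3 each). The groups overlapped, and the change of -0.56 ± 0.57 (SE) was no larger than its error.

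**Figure D1:**
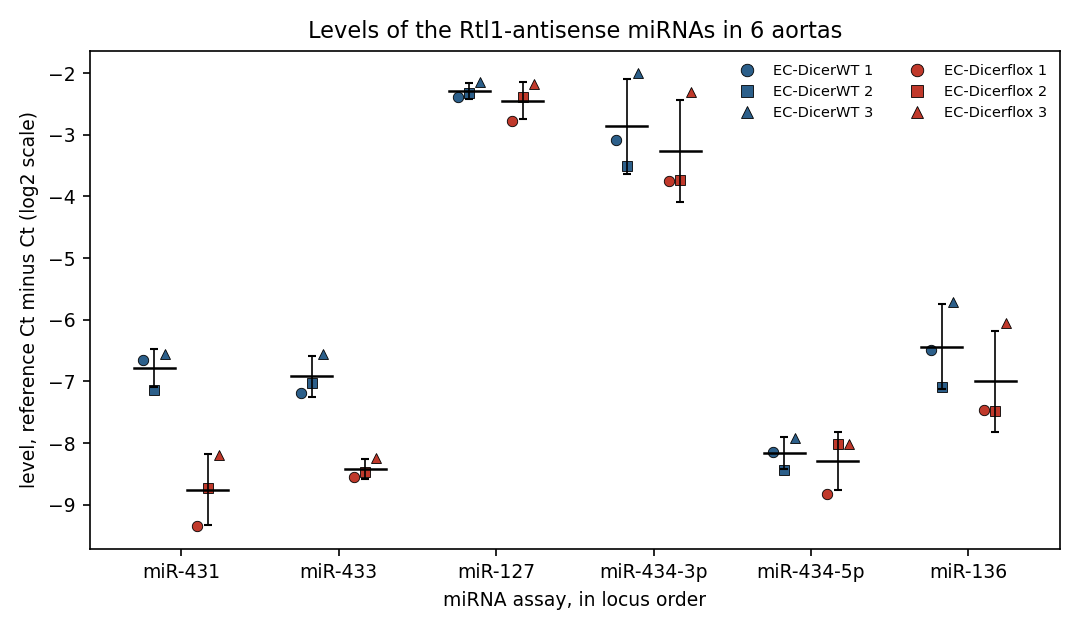
Level of each member (reference Ct minus Ct, log2 scale) in 3 EC-DicerWT (blue) and 3 EC-Dicerflox (red) aortas, with circles, squares and triangles for replicates 1, 2 and 3, a line at the mean and bars of ± SD. The red and blue points are apart in miR-431 and miR-433 and mixed in the other 4 members.

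Across the cluster, the mean change was lower than 0 in 6 of 6 members, as in 271 of the 439 tested assays, and those of miR-127, miR-434-3p and miR-434-5p turned sign in some alternatives. In 2 members, miR-431 and miR-433, all EC-Dicerflox values lay below all EC-DicerWT values. In the whole table such a drop without overlap held for 31 of the 439 tested assays (7.06%), and the reverse order for 12 (2.73%). Ranked from the largest drop, miR-431 was the 15th and miR-433 the 19th of the 439 assays, whereas miR-136, miR-434-3p, miR-127 and miR-434-5p were at positions 80, 110, 191 and 209. Because the cluster was chosen on the values of miR-431 and miR-433, their count and ranks say only where the choice fell. The median change of all tested assays was -0.10, and that of the 4 other members ranged from -0.56 to -0.12. No assay in the table had an adjusted limma P under 0.05 (0%), and 17 lower (3.87%) and 4 higher assays (0.911%) had an unadjusted limma P under 0.05. Along the locus, the members with the large drops were the first and the second.

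**Figure D2:**
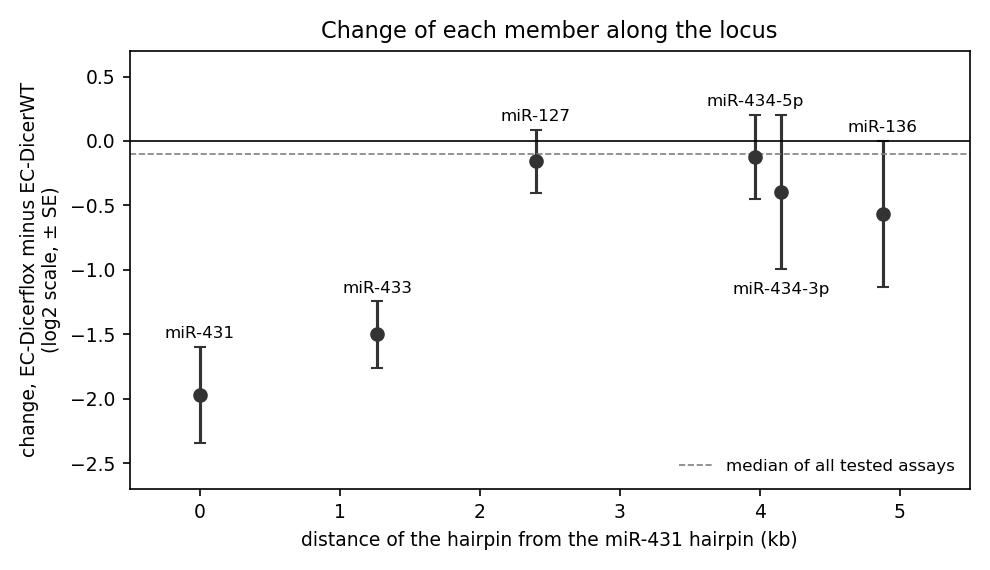
Change of each member (EC-Dicerflox minus EC-DicerWT, log2 scale, ± SE from the fit across all tested assays) against the distance of its hairpin from that of miR-431 in kb, with the strands of miR-434 drawn slightly apart. MiR-431 and miR-433 lie at -1.97 and -1.50, and the 4 members beyond 2 kb lie between -0.56 and -0.12, below the median of all tested assays (dashed, -0.10).

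The mean level of the 6 members was -5.58 ± 0.39 in EC-DicerWT and -6.36 ± 0.49 in EC-Dicerflox aortas (SD, n = 3 each). This change of -0.79 joined unequal parts and the groups overlapped. The mean of miR-431 and miR-433 changed by -1.74, to 30.0% of the EC-DicerWT level, and that of the other 4 members by -0.31, to 80.6%.

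Neighbours can be compared within a sample without any reference RNA, because the difference of their Ct values does not contain it. The mean level of miR-431 and miR-433 minus that of the other 4 members was -3.24, -3.20 and -3.58 in EC-Dicerflox replicates 1 to 3 and -1.89, -1.74 and -2.11 in EC-DicerWT replicates 1 to 3. The groups were separated by more than the spread of either, with means of -3.34 ± 0.21 and -1.91 ± 0.19 (SD, n = 3 each). Since the values of miR-431 and miR-433 guided the choice of the cluster, this separation restates that choice and supports nothing further. The difference of -1.43 means that miR-431 and miR-433, relative to their neighbours, were at 37.2% of their EC-DicerWT level.

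Against miR-127 alone, the Ct of miR-127 minus that of miR-431 was -6.57, -6.35 and -6.03 cycles in EC-Dicerflox and -4.27, -4.81 and -4.43 cycles in EC-DicerWT replicates 1 to 3, a difference of -1.81. For miR-433 the same quantity was -5.77, -6.09 and -6.06 cycles in EC-Dicerflox and -4.79, -4.69 and -4.41 cycles in EC-DicerWT replicates 1 to 3, a difference of -1.34. The groups did not overlap in either, and as the cluster was chosen on these miRNAs, this supports nothing further. Relative to miR-127, miR-434-3p, miR-434-5p and miR-136 differed by -0.24, 0.04 and -0.41, with overlap in each.

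**Figure D3:**
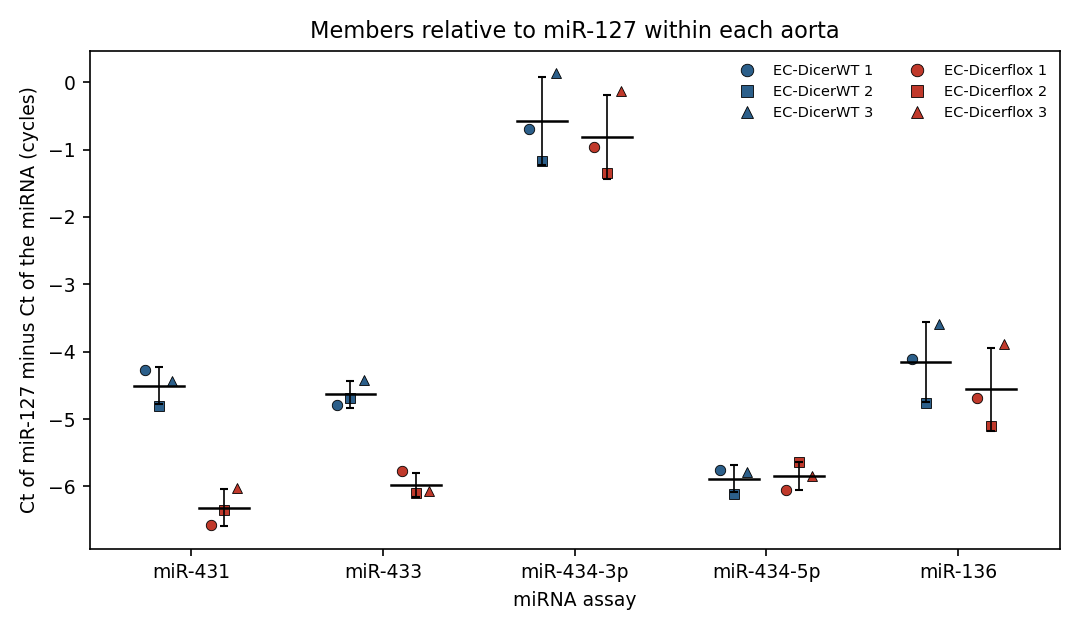
Ct of miR-127 minus the Ct of each other member within the same aorta, in cycles, with EC-DicerWT in blue and EC-Dicerflox in red, symbols for replicates, a line at the mean and bars of ± SD. The groups are separated for miR-431 (means -6.32 and -4.50) and miR-433 (means -5.98 and -4.63) and overlap for miR-434-3p, miR-434-5p and miR-136.

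Of the 15 pairs of members, 9 had differences of Ct that did not overlap between the groups, against 6754 of the 77421 pairs of fully detected assays (8.72%). These were all 8 pairs that join miR-431 or miR-433 to another member, and 1 of the 6 pairs among the other members, miR-434-3p and miR-136. The 8 pairs hold a miRNA on whose values the cluster was chosen and support nothing further. In the other pair the size of the difference was small, 3.57 ± 0.15 cycles in EC-DicerWT and 3.74 ± 0.02 cycles in EC-Dicerflox aortas (SD, n = 3 each). MiR-431 and miR-433 themselves were not separated, since the Ct of miR-433 minus that of miR-431 was -0.80, -0.26 and 0.04 cycles in EC-Dicerflox and 0.52, -0.11 and -0.01 cycles in EC-DicerWT replicates 1 to 3.

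The same within-sample comparison was extended to the 388 other assays that were detected in all samples. MiR-431 was lower in EC-Dicerflox aortas relative to 289 of them without overlap (74.5%), and miR-433 relative to 267 (68.8%). For miR-127, miR-434-3p, miR-434-5p and miR-136 these counts were 16, 4, 10 and 8 (4.12%, 1.03%, 2.58% and 2.06%). Relative to 15, 3, 11 and 2 assays these 4 members were higher without overlap, and miR-431 and miR-433 relative to 0. Over all pairs of fully detected assays, 8.72% were without overlap in either direction. The cluster was chosen on the values of miR-431 and miR-433, so their counts restate that choice and support nothing further.

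The order of the members by Ct differed between the groups at its late end. MiR-127 had the lowest Ct except in EC-DicerWT replicate 3, where miR-434-3p did. MiR-434-5p had the highest Ct in all 3 EC-DicerWT aortas, whereas miR-431 (replicates 1 and 2) or miR-433 (replicate 3) had the highest Ct in the EC-Dicerflox aortas. In EC-DicerWT aortas, miR-136 (Ct 25.9 to 26.5), miR-431 (26.2 to 26.7) and miR-433 (26.5 to 26.8) were close to each other and changed places between mice. Assays differ in efficiency, so this is an order of Ct and not of molecules. Among the 439 tested assays, the EC-DicerWT levels of miR-127 and miR-434-3p ranked 90th and 100th from the highest, and those of miR-136, miR-431, miR-433 and miR-434-5p ranked 184th, 192nd, 195th and 243rd.

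Among the 15 pairs of members, miR-136 with miR-434-3p and miR-434-5p with miR-127 kept a nearly constant difference over all 6 aortas. They had the smallest SD of the 15. The Ct of miR-136 minus that of miR-434-3p was 3.72, 3.75 and 3.76 cycles in EC-Dicerflox and 3.41, 3.59 and 3.72 cycles in EC-DicerWT replicates 1 to 3, or 3.66 ± 0.13 (SD, n = 6). Of the 77421 pairs of assays detected in all samples, 0.417% had a smaller SD of this difference. The Ct of miR-434-5p minus that of miR-127 was 6.06, 5.64 and 5.84 cycles in EC-Dicerflox and 5.76, 6.11 and 5.78 cycles in EC-DicerWT replicates 1 to 3, or 5.86 ± 0.18 (SD, n = 6), with a smaller SD in 1.5% of the pairs. The median SD over all pairs, which were not matched for Ct and include late assays, was 0.90 cycles. Both pairs of members were picked as the tightest of the 15, so their shares are a description. For the remaining pairs of members, between 18.6% (miR-431 and miR-433) and 55.7% (miR-431 and miR-434-5p) of all pairs had a smaller SD.

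The strands of the miR-434 hairpin, which are cut from the same precursor, did not form such a pair. The Ct of miR-434-5p minus that of miR-434-3p was 5.09, 4.28 and 5.72 cycles in EC-Dicerflox and 5.06, 4.94 and 5.92 cycles in EC-DicerWT replicates 1 to 3. In each group the difference was largest in the third replicate. Its mean was 5.31 ± 0.53 cycles in EC-DicerWT and 5.03 ± 0.72 cycles in EC-Dicerflox aortas (SD, n = 3 each), and the groups overlapped. The SD over all 6 aortas was 0.58 cycles, close to the median of 0.56 for 22 hairpins. These had assays named 5p and 3p, both detected in all samples on the same card. Their SD ranged from 0.13 for miR-142 to 2.94 for miR-1897. MiR-434-3p had the lower Ct in all 6 aortas.

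**Figure D4:**
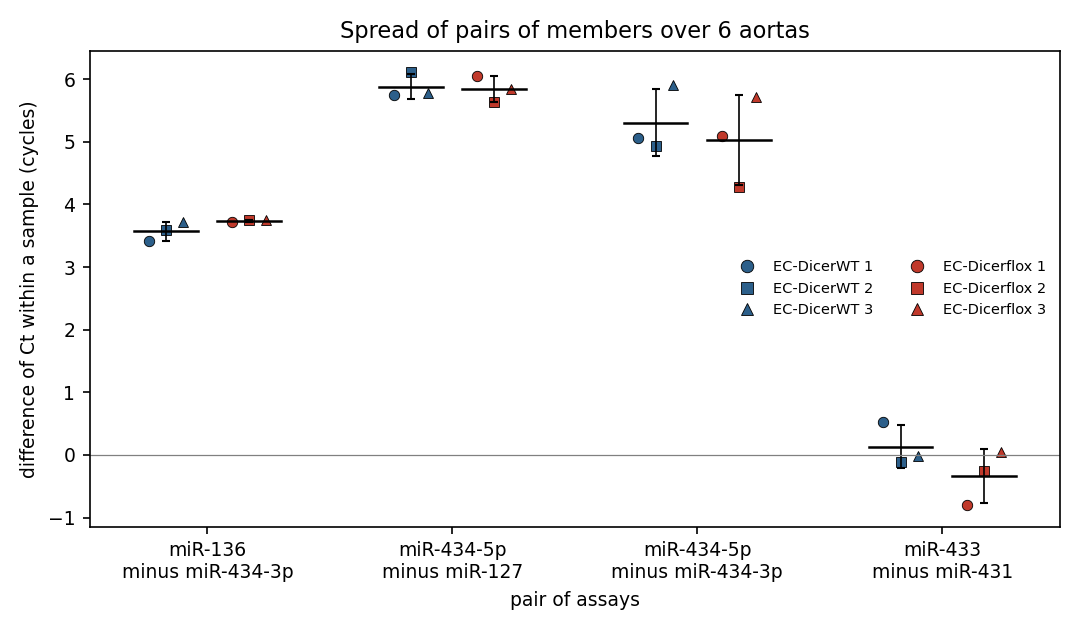
Difference of Ct within each aorta, in cycles, for 4 pairs of members, with EC-DicerWT in blue and EC-Dicerflox in red, symbols for replicates, a line at the mean and bars of ± SD. The differences of miR-136 and miR-434-3p and of miR-434-5p and miR-127 are tight, while those of the miR-434 strands (4.28 to 5.92 cycles) and of miR-433 and miR-431 spread more.

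In 4 of the 6 aortas all members deviated from their group mean in the same direction. All 6 members lay below their group mean in EC-Dicerflox replicate 1 and EC-DicerWT replicate 2 (mean deviation -0.42 and -0.34), and all 6 above it in the third replicates (0.53 and 0.43). The reference Ct, which enters every level, was the lowest of its group in EC-Dicerflox replicate 1 (19.44) and EC-DicerWT replicate 2 (19.45). It was the highest in the third replicates (20.36 and 20.17). Its part in the shared deviations was not tested. In EC-Dicerflox replicate 2, 3 members lay above and 3 below, and in EC-DicerWT replicate 1, 2 lay above and 4 below. In all 6 members, the third replicate was the highest of its group in both groups, which held for 113 of the 439 tested assays (25.7%). This pattern depended on the reference RNAs, whose mean Ct was itself latest in the third replicates. With U6 alone as reference it held for 0 of 6 members, and with the global mean Ct of fully detected miRNAs for miR-431, miR-434-3p and miR-136. The third replicates exceeded the mean of the other aortas by 1.44 and 1.29 in miR-434-3p and by 1.42 and 1.08 in miR-136 (EC-Dicerflox and EC-DicerWT). In miR-127 and miR-434-5p the excess was between 0.22 and 0.41.

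Since the third replicates stood apart in both groups, the changes were also taken without them. In replicates 1 and 2 the change was -2.14 for miR-431 and -1.41 for miR-433, and between the third replicates it was -1.63 and -1.69. For miR-127, miR-434-3p, miR-434-5p and miR-136 it was -0.22, -0.45, -0.13 and -0.68 in replicates 1 and 2, and -0.04, -0.30, -0.10 and -0.34 between the third replicates. MiR-431 and miR-433 had the largest drops of the members in each set. Their values in these same aortas guided the choice of the cluster, so this adds no support. In replicates 1 and 2, with 2 mice a group, 4 of the 6 members were without overlap, and with U87 alone as reference only miR-431 was. Leaving out aortas can only keep or raise such a count. The share over all tested assays was not taken for 2 mice a group, so the count of 4 says little about the members.

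**Figure D5:**
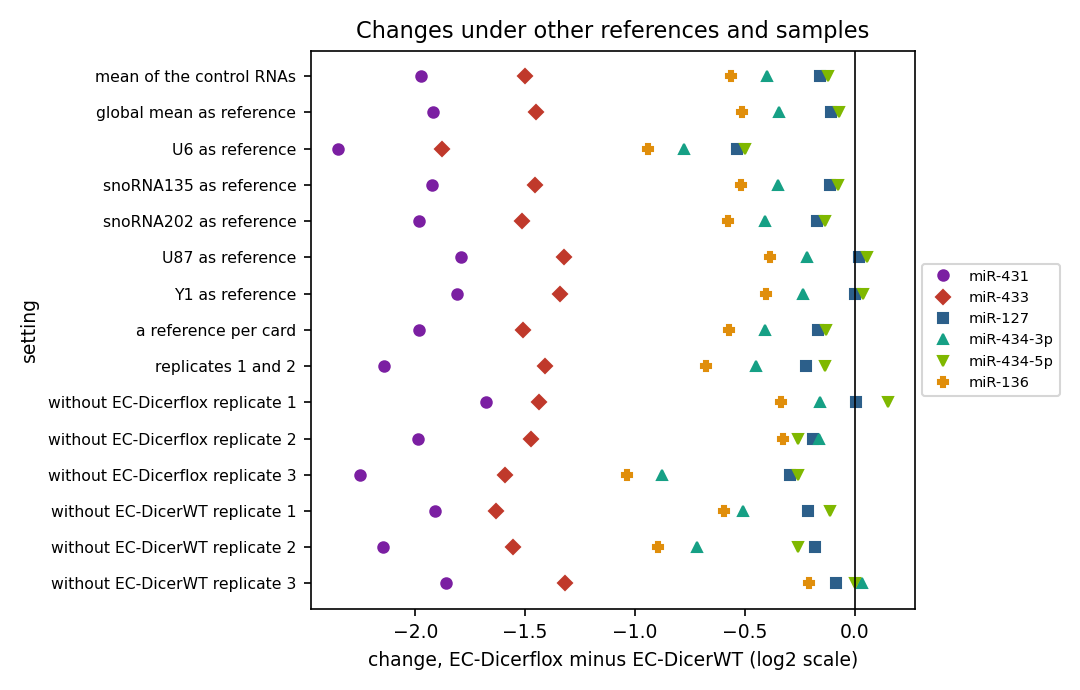
Change of each member (EC-Dicerflox minus EC-DicerWT, log2 scale) with the mean of the control RNAs (top row), with other references, in replicates 1 and 2 alone, and without each aorta in turn. MiR-431 (-2.35 to -1.68) and miR-433 (-1.88 to -1.32) stay left of the other members in every row, and miR-127, miR-434-5p and miR-434-3p cross 0 in some. Every row reuses aortas on whose values of miR-431 and miR-433 the cluster was chosen.

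The assays with a profile over the 6 aortas most like that of the cluster were found by the root mean square difference between their levels and the mean of the 6 members, after subtracting each assay's own mean. The closest of the 388 assays were miR-139-5p (0.16), miR-107 (0.18), miR-103 (0.18), miR-99b (0.20) and miR-337-3p (0.23), against a median of 0.62. Of these, miR-337-3p lies in the same locus, between Meg3 and Rtl1. Each member differed from the mean of the other members by 0.37 (miR-136) to 0.73 (miR-431), and 5 of the 6 were under that median. The single assay closest to miR-431 was miR-433 and the reverse (0.39), and the same held for miR-434-3p and miR-136 (0.12). MiR-127 and miR-434-5p differed by 0.17. The assays closest to these members were the strands of another miRNA, miR-532-5p (0.09) and miR-532-3p (0.12). The reference RNA cancels out in these values, the difference between the groups does not, and they are given as a description of 6 samples.

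Of the other strands of these hairpins, the table held assays named miR-136* and miR-433-5p. MiR-136*, the second strand of the miR-136 hairpin, had a Ct of 32.6, 40 and 35.7 in EC-Dicerflox and 35.1, 32.3 and 38.9 in EC-DicerWT replicates 1 to 3, so it was detected late in 5 samples, was undetected in EC-Dicerflox replicate 2 and overlapped between the groups. MiR-433-5p was not detected in any sample, and neither was miR-432, whose hairpin lies between those of miR-434 and miR-136.

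Outside the members, changes in the locus went both ways. Of the 66 other assays listed for the locus, 50 were tested, 32 were lower and 18 higher in EC-Dicerflox aortas, with a median change of -0.23. Over all tested assays the median was -0.10. The median of the locus was -0.06 without EC-DicerWT replicate 1, where that of all assays was -0.09, and -0.61 with U6 as reference, where that of all assays was -0.48. None of the 50 had an adjusted limma P under 0.05, and 2 had an unadjusted limma P under 0.05, both lower (3.87% of all tested assays were). All EC-Dicerflox values lay below all EC-DicerWT values in 5 of the 50 (miR-409-3p, miR-495, miR-667, miR-412 and miR-487b on card B), and above them in 1 (miR-1188), against 7.06% and 2.73% of all tested assays, so these counts do not set the locus apart.

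In the interval from Meg3 to Rtl1, which lies next to the cluster, 5 of 7 listed and tested assays were lower, with a median of -0.16. Among the listed assays detected in all samples, miR-673-3p had the largest drop (-0.87 ± 1.44, SE) and miR-665 the largest rise (0.74 ± 0.81, SE). Both were smaller than their error. In the Rian interval, miR-370 changed by -0.35 ± 0.26 (SE) and miR-1188 by 1.26 ± 0.67 (SE). A second assay named miR-370, on card B, was not detected in any sample.

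In Mirg, the last and largest group of the locus, 25 of 40 tested assays were lower, with a median of -0.23. MiR-412 had the largest drop (-2.72 ± 0.85, SE, adjusted limma P of 0.98), and miR-377 the largest rise (1.52 ± 2.60, SE, adjusted limma P of 0.99). MiR-412 was a late assay, with a Ct of 31.1, 34.7 and 33.4 in EC-Dicerflox and 30.5, 29.5 and 30.6 in EC-DicerWT replicates 1 to 3. Of the Mirg miRNAs, 3 had a tested assay on each card, and in all 3 the changes had opposite signs. They were 0.17 on card A and -0.80 on card B for miR-487b, -0.70 and 0.13 for miR-543, and -0.25 and 0.21 for miR-494. MiR-431 and miR-433, at a Ct between 26.2 and 28.8, were measured on card A, as were the other 4 members.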

How the data were processed

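Per the study's methods, RNA was copied into cDNA, amplified in advance with pooled rodent primers and measured on TaqMan array cards. The authors deposited raw Ct values without a reference RNA subtracted (other unit: cycles, 40 at the limit). The baseline and threshold settings were not given in the sources used here. The table held 596 mouse miRNA assays, 10 assays of 5 control RNAs and 2 of a plant miRNA, and the number in the assay name gave the card. Read depth does not apply to Ct values, and 3 mice per group limit the precision.

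Levels were the mean control Ct minus the Ct, with 40 kept. Assays with a Ct under 40 in at least 3 samples were fitted with limma 3.58.1 in R 4.3.3 (lmFit and eBayes, two-sided, Benjamini-Hochberg over 439 assays), which also gave the moderated SE. The fit was tested on simulated data. The members and lists were chosen with earlier results of these data known. Named beside the members were assays of the other strands, the largest drop and rise among fully detected assays of each other interval, the 5 assays closest in profile, and any assay with an adjusted P under 0.05. Further assays were named after their values were seen (miR-409-3p, miR-495, miR-667, miR-487b, miR-543, miR-494, miR-208, miR-432, miR-142, miR-1897 and the miR-532 strands). Alternatives were other references, detection filters, limits and variance models, a replicate block, the third replicates as a term, replicates 1 and 2 alone, and leaving out each replicate. SnoRNA202, U87 and Y1 as references were added after seeing the data. Deviations of same-numbered samples from their group means correlated at 0.24, 0.03 and 0.39 over 394 assays for replicates 1, 2 and 3. The mice were treated as unpaired in the main fit, which leaves any part shared by same-numbered samples in the spread. The replicate block was run as an alternative.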

Additional observations from a re-analysis of the deposited data

Results flagged for a closer look

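The plant miRNA that serves as a negative control had a Ct of 39.776 on card A in EC-Dicerflox replicate 1, just inside the limit of 40. It was not detected on card A in the other 5 samples, nor on card B in any sample.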

How the results depend on the processing

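The changes of miR-431 (-2.35 to -1.68), miR-433 (-1.88 to -1.32) and miR-136 (-1.04 to -0.21) kept their direction in 16 alternatives, and the mean change of the members (-1.16 to -0.57) in 18. As the cluster was chosen on miR-431 and miR-433 in these aortas, their steady direction adds no support. Relative to miR-127, the 9 alternatives run gave -1.97 to -1.69 for miR-431 and -1.45 to -1.19 for miR-433. Both stayed without overlap, and no other member was without it. These alternatives kept the member values as they were or left aortas out, which cannot make separated groups overlap. The lack of overlap in them therefore adds no support. The number of members without overlap, 2 with the mean of the control RNAs, was 1 with U87, 4 in replicates 1 and 2, and 2 to 4 with 1 aorta left out (4 without EC-Dicerflox replicate 3). Leaving out aortas cannot lower this number, and the share over all tested assays in these smaller sets was not taken. With 1 aorta left out, miR-127 ranged from -0.29 to 0.0081, miR-434-5p from -0.26 to 0.15 and miR-434-3p from -0.88 to 0.0315, and these small changes turned their sign: miR-127 to 0.02 with U87, 0.0027 with Y1 and 0.0081 without EC-Dicerflox replicate 1, miR-434-5p to 0.057 with U87, 0.0397 with Y1, 0.15 without EC-Dicerflox replicate 1, 0.0023 if EC-DicerWT replicate 3 was left out, and miR-434-3p to 0.0315 without EC-DicerWT replicate 3. Relative to miR-127, miR-434-3p ranged from -0.58 to 0.12 with 1 aorta left out (0.0305 without EC-Dicerflox replicate 2, 0.12 without EC-DicerWT replicate 3), and miR-434-5p from -0.0763 to 0.14 (-0.0672 without EC-Dicerflox replicate 2, -0.0763 without EC-DicerWT replicate 2). The difference between the groups in Ct of miR-434-5p minus miR-434-3p, -0.28 with all samples, ranged from -0.62 to 0.10 with 1 aorta left out (0.10 when EC-Dicerflox replicate 2 was left out, 0.0292 for EC-DicerWT replicate 3). The number of other assays of the locus that were lower was 25 to 44 over 18 alternatives (32 with all samples). The median change of these assays was -0.61 to -0.01, and minus the median of all tested assays it was -0.19 to 0.02 (-0.13 with all samples, 0.02 when EC-DicerWT replicate 1 or EC-Dicerflox replicate 3 was left out). The median of all tested assays, -0.10, moved to -0.48 with U6, 0.08 with U87 and 0.06 with Y1. The 21 assays with an unadjusted limma P under 0.05 became 11 with U6 (11 lower, 0 higher), 6 with U87 (1 lower, 5 higher), 11 with Y1 (6 lower, 5 higher) and 8 to 22 with 1 aorta left out (8 without EC-Dicerflox replicate 2, 13 without EC-DicerWT replicate 1, 11 without EC-DicerWT replicate 3). In replicates 1 and 2 they were split into 9 lower and 8 higher. With the replicate block 17 assays passed, 10 of them shared with the 21, and 0 had an adjusted P under 0.05. One assay, miR-1906, had an adjusted limma P under 0.05 with the third replicates as a term (0.0062) and in replicates 1 and 2 (0.045), and 0 assays did in the other 19 alternatives. MiR-1906, which was not among the assays listed for the locus, was higher in EC-Dicerflox aortas, with a change of 6.83 and 6.50 in these fits. Fewer samples entered the fits that left aortas out, and beyond that the cause was not tested. PCR efficiency was not measured, so a change in cycles may differ from the ratio of molecules.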

Other observations

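MiR-136*, the strand of the miR-136 hairpin that was detected late, had the profile closest to that of miR-124, a miRNA of neurons, among the tested assays. MiR-124 had a Ct of 32.7, 40 and 37.1 in EC-Dicerflox and 35.5, 32.7 and 37.7 in EC-DicerWT replicates 1 to 3, and both assays were undetected in EC-Dicerflox replicate 2 alone. The root mean square difference of their levels was 0.78, and the next closest assay, miR-879, was at 1.55. The limit of 40 that stands for both assays in EC-Dicerflox replicate 2 enters this likeness, and miR-879 was also undetected there. Its part in the match was not tested. The assays of miR-136* and miR-124 were run on different cards, and their match was chosen after the values were seen.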
